A study of Mus musculus with 15 samples.

Results

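The genes described here are those of the factors that start and extend protein chains on the cytosolic ribosome. They were taken by symbol alone: a row of the count table whose symbol starts with Eif and a digit, or with Eef1 or Eef2, was kept if its mean raw count over the libraries was at least 10. Of 66 such rows 64 were kept, out of 23284 genes in the table. Eif4e1b fell below the minimum, and Eif3j was listed at 0 in all 15 libraries. The 64 members comprised 19 of the Eif2 group, 12 of the Eif3 group, 15 of the Eif4 group, 10 of the Eif1, Eif5 and Eif6 families and 8 elongation factor genes. These 8 include Eef2k, the gene of the eEF2 kinase, and Eef1e1, whose product is a part of the multi-tRNA synthetase complex. Neither product is itself an elongation factor, and both genes are counted with this group below. The symbols Eif2c1, Eif2c2, Eif2c3 and Eif2c4 are older names of the Argonaute genes Ago1, Ago2, Ago3 and Ago4, whose products load small RNAs and are not initiation factors. They met the rule on symbols and are described apart from the rest of the Eif2 group.

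RNA was measured in mouse E14 embryonic stem (ES) cells, of the line E14Tg2A, grown with serum and LIF. All cells, controls included, were nucleofected with 5 nmol of a Lissamine-labelled antisense oligonucleotide (ASO), directed at the LINE1 repeat or the control called RC, and after 7 h received 100 pmol of siRNA per well. They were collected on day 2 without sorting for ASO uptake, so that each library holds the RNA of cells with and without the oligonucleotides. The 15 libraries formed 5 groups of 3: RC ASO with siControl (RC control), RC ASO with siDux (RC siDux), RC ASO with siNcl (RC siNcl), LINE1 ASO with siControl (LINE1 control) and LINE1 ASO with siDux (LINE1 siDux). Dux encodes a transcription factor of the early embryo and Ncl the nucleolar protein nucleolin. The labels do not say whether replicates came from separate cultures, so the spread between them may be technical.

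In translation initiation, eIF2 carries the initiator tRNA to the small ribosomal subunit, eIF3 is the large scaffold that holds the factors on that subunit, and eIF4E, eIF4G and eIF4A bind the cap, bridge the mRNA to eIF3 and unwind it. Phosphorylation of eIF2 by stress kinases lowers bulk initiation and favours mRNAs such as that of Atf4, while eIF4E is held off eIF4G by the eIF4E-binding proteins under the control of the kinase mTOR. During elongation eEF1A brings aminoacyl-tRNA, the eEF1B subunits recharge it with GTP, and eEF2 moves the ribosome along. ES cells divide fast and carry these mRNAs at high levels. Many mRNAs of the translation machinery begin with a run of pyrimidines, the TOP tract, through which mTOR controls their translation.

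The starts of 10 member genes are shown here because these genes carry the comparisons below: 4 whose annotated start lies at a pyrimidine tract and 6 that changed in a test and have none. Each is 25 bases of RefSeq sequence (GRCm38.p6, coordinates 1-based), from 5 bases before the annotated start to 19 after it, read 5′ to 3′ on the gene's strand. Capitals mark a tract, defined as C followed by at least 4 C or T, that begins within 5 bases of the start; where more than 1 fits, as at Eif3l, the longest is marked. For Eif4e2, with 3 annotated starts, and Eif4g3, with 2, the most upstream is printed.
Eif3f, chr7:108934410-108934434, plus strand: gCTCTCTCTCTTTCTCggcaagatg
Eif3l, chr15:79075218-79075242, plus strand: cttcttccgCTCTCTCCCacgggct
Eif2s3x, chrX:94212632-94212656, minus strand: ttttCCTTTTCTCTCCgagcaagat
Eif2s3y, chrY:1010590-1010614, plus strand: cagccaCTTCCTTCTTTCgtgagca
Eif3g, chr9:20898571-20898595, minus strand: ggctgggagctgcgtggagttaaga
Eif3d, chr15:77970805-77970829, minus strand: catttacgacagcgctggtcgccgt
Eif2s2, chr2:154892887-154892911, minus strand: tggctttactgtacgcctgcgcttt
Eif4e2, chr1:87213906-87213930, plus strand: cgccagccaaccggaagtagccggg
Eif4a3, chr11:119300024-119300048, minus strand: tacatccggttcccgccgcggcttg
Eif4g3, chr4:137993450-137993474, plus strand: gcggccgtcctgccggactgctgga
The longest tract of these runs over 15 bases at Eif3f, which encodes a subunit of eIF3 with an MPN domain. Eif2s3x and Eif2s3y, the copies of the gene of eIF2 gamma on the X and the Y chromosome, both begin at a tract of 12 bases, and Eif3l at a tract of 9.

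Gene counts summed to between 9.55 M and 27.6 M per library, and the LINE1 libraries, from 17.4 M upwards, were deeper than the RC libraries. Members took 3.43% to 4.00% of the gene counts. Ncl stood at 516 to 644 CPM (counts scaled to library size) in RC siNcl against 4532 to 6200 in RC control, and Dux at 0 to 5 counts per library in RC siDux and 1 to 4 in RC control, so that the siDux label could not be checked there. Under the LINE1 ASO Dux stood at 0.459 to 0.642 CPM with siDux and at 0.820 to 1.38 CPM with siControl, without overlap, a log2 fold change of -1.07 that did not pass (edgeR adjusted p = 0.298). Repeat rows named L1Md summed to 8388, 7402 and 5399 CPM of the gene total in LINE1 control (replicates 1, 2 and 3). In RC control they summed to 6837, 3621 and 4498 CPM. The ranges overlap, and by replicate number LINE1 control was the higher each time. In siDux cells the sums were 6076 to 8888 CPM with the LINE1 ASO and 5691 to 9463 with the RC ASO. A fall of L1Md RNA under the LINE1 ASO was therefore not seen in these counts. All 8 ES cell markers were counted, with summed levels of 3377 to 5845 CPM, and no marker was at 0 throughout. Fibroblast markers summed to 28.2 to 60.7 CPM, trophoblast markers to 20.1 to 37.5, primitive endoderm markers to 8.81 to 26.3, markers of epiblast and neuroectoderm to 77.4 to 193 and mesoderm markers to 4.12 to 26.7. Replicate 3 of every group was the highest at the mesoderm marker T, with 8.75 to 23.3 CPM against 1.63 to 3.73 in replicates 1 and 2. The same held at Nes, with 93.6 to 119 CPM against 38.8 to 65.1. Not all markers followed this order. Replicate 2 of RC control stood apart: it was the highest of the 3 RC control libraries for 38 of 64 members, and over 1.5 times both others for 8 of them (Eif5b, Eef1b2, Eef1d, Eif4a2, Eif3m, Eif6, Eif2c4 and Eif2b4). Replicate 3 of LINE1 control was the nearest to the RC control mean for 45 of 64 members, and replicate 3 of LINE1 siDux was the nearest to the RC siDux mean for 46. Values below are CPM scaled by TMM, changes are log2 fold changes ± SE, and adjusted p-values are Benjamini-Hochberg values of edgeR's quasi-likelihood test over the 14696 genes tested, with a threshold of 0.05. All 64 members passed the filter on low counts.

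**Figure D1:**
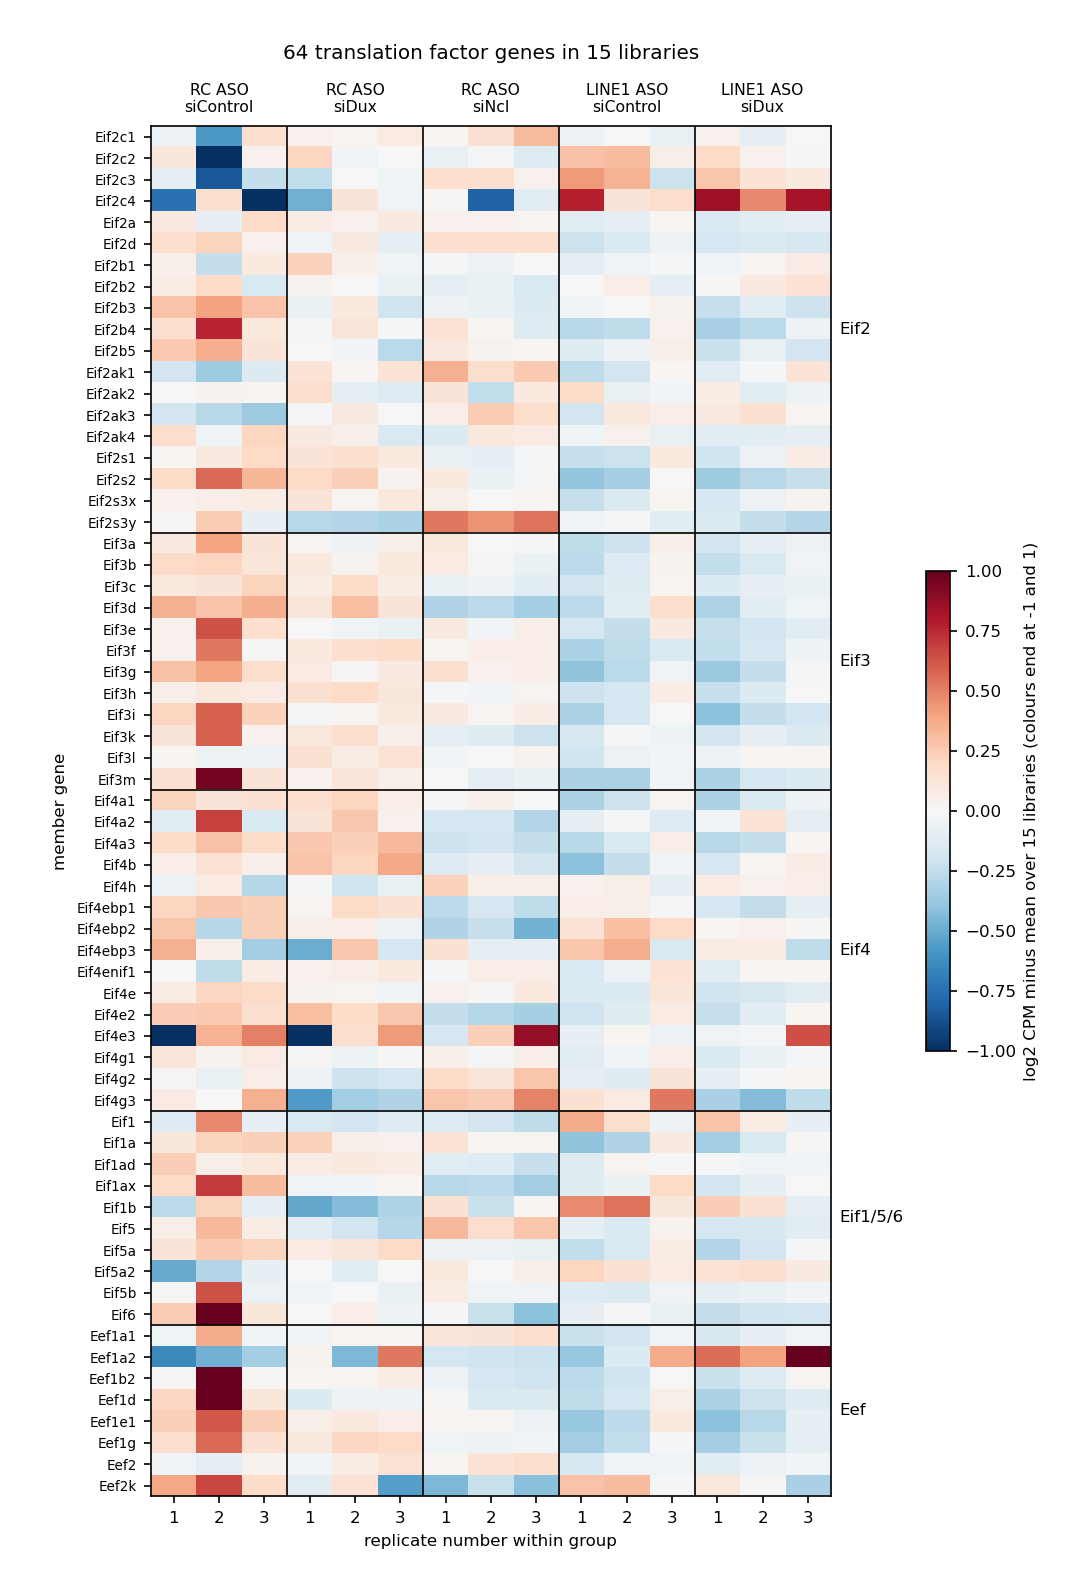
Level of each of the 64 members (rows, by group) in each of the 15 libraries (columns), as log2 CPM minus the gene's mean over the libraries. RC control replicate 2 is red at Eef1b2, Eef1d, Eif3m and Eif6, and most Eif3 rows are blue in replicates 1 and 2 of both LINE1 groups.

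Per kilobase of merged exon, the subunit genes of eIF3 spanned a narrower range in RC control than the other groups, from 114 ± 23.9 CPM per kb for Eif3f to 340.1 ± 77.1 for Eif3e (SD, n = 3). The 4 eIF2 subunit genes were less even. Eif2s2, the beta subunit, stood at 369 ± 50 CPM per kb, Eif2s3x at 149 ± 1.76, Eif2s1, the alpha subunit that the stress kinases phosphorylate, at 106 ± 6.52, and Eif2s3y at 54 ± 6.58. Each of these SDs was smaller than the step to the next gene. In the Eif4 group the helicase gene Eif4a1 was highest, at 1642 ± 54.6 CPM per kb, above Eif4g2, at 257 ± 12.6; the cap-binding factor genes Eif4e and Eif4e2 lay at 52.4 ± 2.62 and 19.8 ± 0.758. Eef1a1 reached 6333 ± 1066 CPM per kb, and its paralogue Eef1a2, known from muscle and neurons, 0.826 ± 0.087. Merged exon lengths come from another annotation than the one counted, so these levels are approximate. Eef1a1, Eif4a1 and other highly expressed members have processed pseudogenes, and Eif1a with Eif1ax and Eif2s3x with Eif2s3y are near-identical pairs. The sources used here do not say how ambiguous reads were assigned, so the level of each of these is uncertain.

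The LINE1 ASO was compared with the RC ASO under siControl to ask how the transcriptome differs between them. Of 64 members 27 fell and 2 rose, where 9.69% of all genes tested fell and 9.35% rose. Of the 12 eIF3 genes 10 fell and 0 rose, with a median log2 fold change of -0.37; for 9 of them all LINE1 libraries lay below all RC libraries, as they did for 14.9% of all genes. Of the 15 Eif2 genes other than the Argonaute genes 5 fell and 0 rose (median -0.15), with 1 higher at an unadjusted p under 0.05 and 1 called higher by DESeq2; of the 4 Argonaute genes 1 rose. In the Eif4 group 4 of 15 fell (median -0.11). The median over all genes tested was 0.017 and over all members -0.22. Among genes with at least 5 CPM in at least 3 libraries, which suits members better as a background, 26 of 61 members fell and 4 rose, where 10.3% of 11108 genes fell and 11.8% rose. No test compared the groups of members with each other. In bulk RNA, fewer cells of a type and less RNA per cell cannot be told apart.

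Eif3g encodes a subunit with an RNA recognition motif. It stood at 235, 252 and 217 CPM in RC control and at 145, 159 and 187 CPM in LINE1 control. All 3 LINE1 libraries lay below all 3 RC libraries, and the change was -0.52 ± 0.10, edgeR adjusted p = 0.00469. Eif3i, whose product is a ring-shaped WD40 protein, stood at 185, 240.1 and 187 CPM in RC control and at 128, 142 and 159 CPM in LINE1 control. These groups did not overlap either, and Eif3i changed by -0.51 ± 0.11, edgeR adjusted p = 0.00567. For Eif3d, a subunit that in human cells can itself bind the cap of some mRNAs, the levels were 466, 445 and 469 CPM and 304, 338 and 411 CPM. LINE1 control replicate 3 was the highest of its group at Eif3d, and the change was -0.39 ± 0.10, edgeR adjusted p = 0.0182.

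Eif3a, the largest subunit, stood at 1121, 1385 and 1149.5 CPM in RC control and at 882, 913 and 1098 CPM in LINE1 control. The groups did not overlap, and the change of Eif3a was -0.34 ± 0.098, edgeR adjusted p = 0.0275. Eif3c stood at 734, 748 and 795 CPM and at 601, 628 and 695 CPM, with no overlap and a change of -0.24 ± 0.075, edgeR adjusted p = 0.034. The steepest fitted change, -0.68 for Eif3m, rested in part on RC control replicate 2: its levels were 304, 532 and 299.6 CPM in RC control and 221, 219.7 and 268 CPM in LINE1 control. Without that replicate the change of Eif3m was -0.35. Eif3l and Eif3h did not pass, at -0.067 ± 0.07, edgeR adjusted p = 0.53 and -0.18 ± 0.084, edgeR adjusted p = 0.139. Eif3e, Eif3b, Eif3k and Eif3f, the gene with the tract of 15 bases, fell, with changes between -0.29 and -0.45; without RC control replicate 2 the changes of Eif3e, Eif3k and Eif3f were -0.21, -0.16 and -0.26, and Eif3e and Eif3k no longer passed.

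These calls depended on single libraries and on the fit. In the 6 fits that left out 1 library of either group, between 3 and 32 members fell: 3 without LINE1 control replicate 1, 4 without LINE1 control replicate 2, 32 without LINE1 control replicate 3, and 15 without RC control replicate 2. The calls of Eif2s2, Eif3g and Eif3i passed in each of the 6. For the eIF3 genes the count was 2 without LINE1 control replicate 1 or 2, and 7 without RC control replicate 2, with medians of -0.29, -0.34 and -0.26. Fitted on these 2 groups of libraries alone, 0 members passed in either direction, with 26 lower and 4 higher at an unadjusted p under 0.05. With library sizes set by the ERCC spike-ins, 0 members passed too, and the median of all genes moved to 0.22; relative to it the eIF3 median was -0.36, while the unshifted medians of all 19 Eif2 genes and of the Eif4 group turned to 0.096 and 0.054. The ES cell markers summed to 4289 to 5845 CPM in RC control and 3582 to 3964 CPM in LINE1 control, and 4 of 8 fell; 1 mesoderm marker rose and 1 fibroblast marker fell. The part of these markers and that of the greater depth of the LINE1 libraries in these results was not tested.

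**Figure D2:**
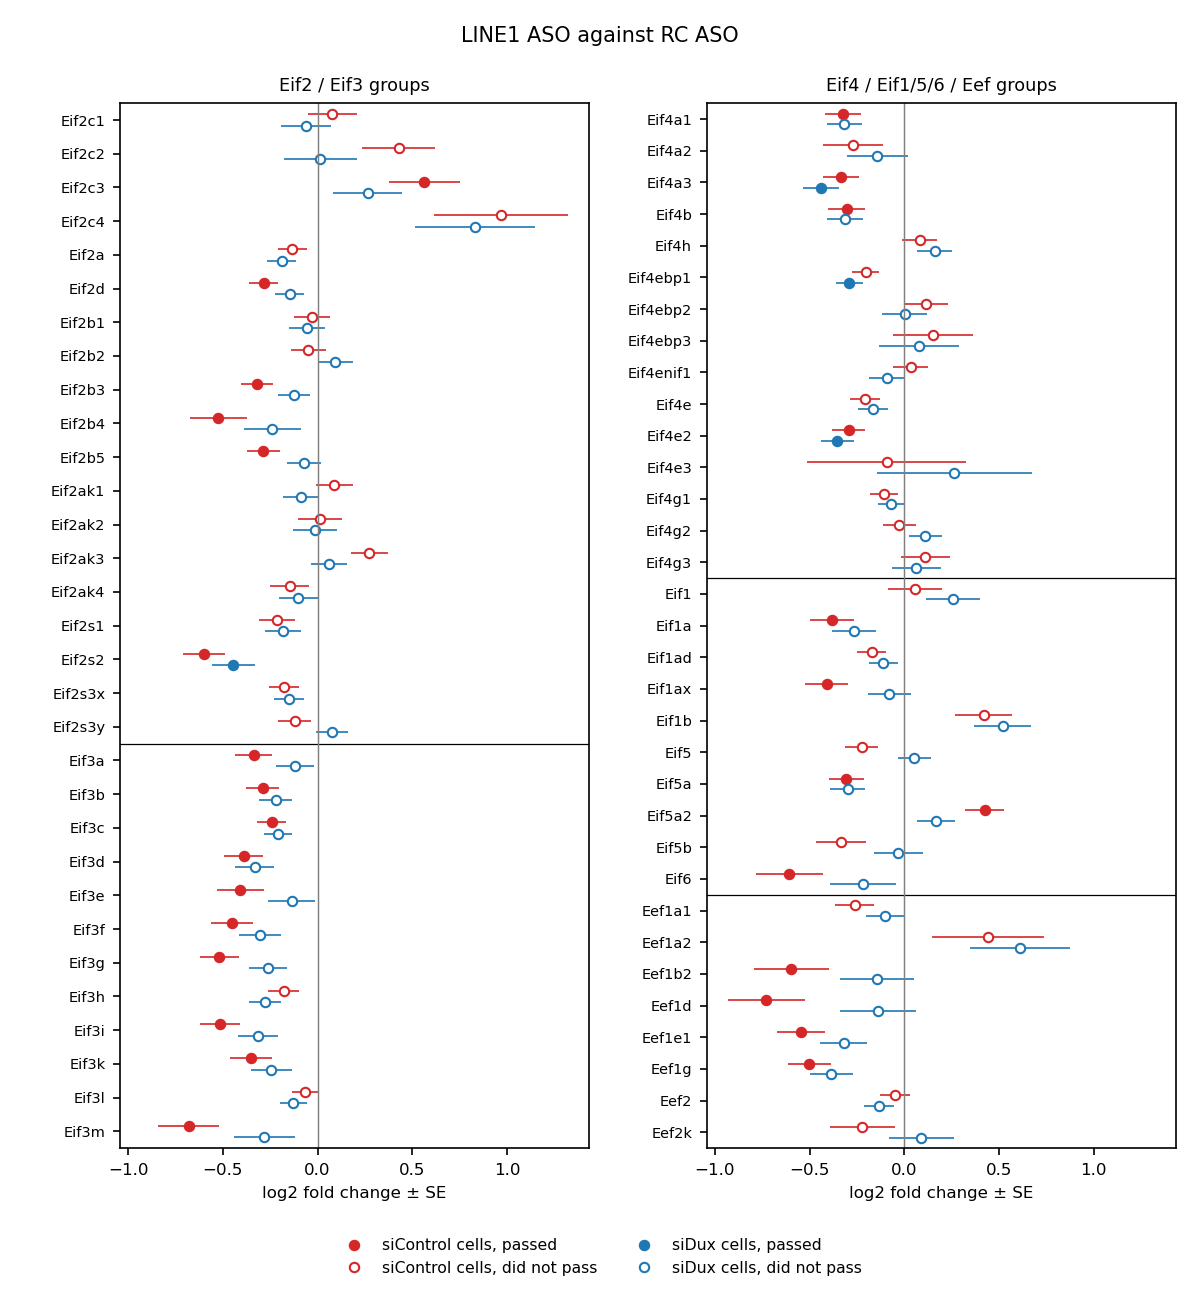
Log2 fold change ± SE of each member for LINE1 ASO against RC ASO, in siControl cells (red) and in siDux cells (blue), with filled points for an edgeR adjusted p under 0.05. The 12 Eif3 genes lie left of 0 in both, and 10 of them are filled in siControl cells and 0 in siDux cells.

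In the Eif2 group, the lowest adjusted p was that of Eif2s2. It stood at 826, 1075 and 909.7 CPM in RC control and at 553, 577 and 727 CPM in LINE1 control, with no overlap. Eif2s2 changed by -0.60 ± 0.11, edgeR adjusted p = 0.00322. The other subunit genes did not pass: Eif2s1 stood at 341, 357 and 385 CPM and at 286, 289.6 and 358 CPM, a change of -0.21 ± 0.094, edgeR adjusted p = 0.12. Of the 5 genes of eIF2B, the exchange factor that reloads eIF2 with GTP, Eif2b3, Eif2b4 and Eif2b5 fell. Eif2b3 stood at 92.2, 99.8 and 92.2 CPM and at 73.8, 75.9 and 77.7 CPM, a change of -0.32 ± 0.084, edgeR adjusted p = 0.0187, and Eif2b4 at 70.1, 107 and 67.5 CPM and at 51.8, 52.7 and 64.9 CPM, a change of -0.53. RC control replicate 2 was far above the others at Eif2b4. The calls of Eif2b3 and Eif2b4 were lost without LINE1 control replicate 1 or 2, and that of Eif2b4 also without RC control replicate 2, where its change was -0.28. Eif2d, which can place initiator tRNA without eIF2, stood at 146, 151 and 134 CPM and at 112, 117 and 125 CPM and changed by -0.28 ± 0.077, edgeR adjusted p = 0.0214. This call and that of Eif2b5 were also lost without LINE1 control replicate 1 or 2. Eif2a, an unrelated factor with a like role, stood at 207, 184 and 223 CPM and at 180.0, 182 and 198 CPM and did not pass, at -0.13 ± 0.077, edgeR adjusted p = 0.23.

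None of the 4 eIF2 kinase genes passed in edgeR under the LINE1 ASO, with 1 higher and 0 lower at an unadjusted p under 0.05 and 1 called higher by DESeq2. Eif2ak3, which encodes PERK, the kinase of endoplasmic reticulum stress, stood at 34.9, 32.6 and 30.8 CPM in RC control and at 34.7, 42.3 and 41.5 CPM in LINE1 control, a change of 0.27 ± 0.097, edgeR adjusted p = 0.0592. Eif2ak4, which encodes GCN2, the kinase of amino acid shortage, changed by -0.15 ± 0.10, edgeR adjusted p = 0.331. Among the Argonaute genes, Eif2c3 stood at 9.74, 5.74 and 8.73 CPM and at 13.8, 13.1 and 8.86 CPM and changed by 0.56 ± 0.19, edgeR adjusted p = 0.0455. The groups overlapped at Eif2c3, replicate 3 of LINE1 control lay among the RC control libraries, and the call was lost without LINE1 control replicate 1 or 2 or RC control replicate 2. Eif2c4, with few reads, stood at 0.82, 1.53 and 0.535 CPM and at 2.36, 1.5 and 1.55 CPM and did not pass, at 0.97 ± 0.35, edgeR adjusted p = 0.0637.

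In the Eif4 group Eif4a1, Eif4a3, Eif4b and Eif4e2 fell under the LINE1 ASO. Eif4a1 encodes the helicase of the cap-binding complex. It stood at 3023, 2838 and 2879.6 CPM in RC control and at 2085, 2248 and 2653 CPM in LINE1 control, a change of -0.32 ± 0.095, edgeR adjusted p = 0.0285. Eif4a1, Eif4a3, Eif4b and Eif4e2 all lost their calls without LINE1 control replicate 1 or 2. Calls were also lost without an RC control library. Only 1 gene of the Eif4 group fell without RC control replicate 1, where Eif4a1 was among those that no longer passed. Only 2 fell without RC control replicate 2. Eif4a3, a relative that marks exon junctions rather than driving initiation, stood at 341, 366 and 341 CPM and at 248, 269.9 and 314 CPM and changed by -0.33 ± 0.094, edgeR adjusted p = 0.0248. Eif4b, which stimulates eIF4A, stood at 855, 899 and 845 CPM and at 614, 691 and 799 CPM and changed by -0.30 ± 0.095, edgeR adjusted p = 0.0367. In both, replicate 3 of LINE1 control was the nearest to RC control. Eif4h, a relative of Eif4b, did not pass: it stood at 403, 446 and 345 CPM and at 433, 437 and 392 CPM, at 0.081 ± 0.093, edgeR adjusted p = 0.567. Eif4e, the cap-binding protein itself, stood at 253, 277 and 275 CPM and at 219, 217 and 261 CPM and did not pass, at -0.21 ± 0.08, edgeR adjusted p = 0.0786. Its relative Eif4e2 stood at 111, 117 and 135 CPM in LINE1 control and changed by -0.29 ± 0.088, edgeR adjusted p = 0.0307. Of the genes of proteins that bind eIF4E, Eif4ebp1 stood at 209, 208 and 198 CPM in LINE1 control, a change of -0.20 ± 0.071, edgeR adjusted p = 0.0568, and Eif4ebp2 did not pass either, at 0.11 ± 0.12, edgeR adjusted p = 0.523. DESeq2 did call Eif4ebp1 lower, with a DESeq2 adjusted p of 0.0145. The scaffold genes Eif4g1, Eif4g2 and Eif4g3 did not pass, with changes of -0.11, -0.026 and 0.11. Eif4g1 stood at 1141, 1080.1 and 1114 CPM in RC control and at 974, 1020.1 and 1103 CPM in LINE1 control, where replicate 3 overlapped the RC libraries.

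Of the Eif1, Eif5 and Eif6 families 4 of 10 fell and 1 rose, and of the elongation factor genes 4 of 8 fell. Eif5a, which relieves ribosome stalling and is the protein modified by hypusine, stood at 1737, 1909.7 and 1854 CPM in RC control and at 1339.6, 1436 and 1676 CPM in LINE1 control, a change of -0.31 ± 0.093, edgeR adjusted p = 0.0325. Its paralogue Eif5a2 moved the other way, from 22.6, 26 and 30.2 CPM to 37.1, 35.5 and 33.8 CPM, without overlap, and rose by 0.43 ± 0.10, edgeR adjusted p = 0.0127. The ratio of Eif5a to Eif5a2 counts was 70.6 ± 8.21 in RC control, 42.1 ± 6.84 in LINE1 control and 46.2 ± 1.6 in RC siNcl (SD, n = 3). In siDux cells it was 56.3 ± 3.15 under the RC ASO and 40.7 ± 4.97 under the LINE1 ASO. Eif5a2 lost its call without LINE1 control replicate 1, and Eif5a without LINE1 control replicate 1 or 2 or RC control replicate 2. Eif1ax and Eif1a code for the scanning factor eIF1A. Eif1ax stood at 141, 146 and 176 CPM in LINE1 control and changed by -0.41 ± 0.11, edgeR adjusted p = 0.0235, or by -0.25 without RC control replicate 2, where it did not pass. Eif1a stood at 273, 295 and 299 CPM in RC control and at 191, 205 and 269.5 CPM in LINE1 control and changed by -0.38 ± 0.12, edgeR adjusted p = 0.0328. The calls of Eif1ax and Eif1a were lost without LINE1 control replicate 1 or 2.

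The elongation factor genes showed how much RC control replicate 2 weighed. Eef1d, an exchange factor subunit, stood at 358, 729 and 335 CPM in RC control, where replicate 2 was far above the others, and at 260.3, 275 and 323 CPM in LINE1 control. Eef1d changed by -0.73 ± 0.20, edgeR adjusted p = 0.0238, and by -0.27 without that replicate, no longer past the threshold. Eef1b2 stood at 890.2, 1830.2 and 889 CPM and at 737, 768 and 883 CPM, a change of -0.60 ± 0.20, edgeR adjusted p = 0.0446 that became -0.16 without the same library. Both calls were also lost without LINE1 control replicate 1 or 2. Eef1g, the subunit with a glutathione transferase-like domain, stood at 1676, 2229 and 1669 CPM and at 1179, 1268 and 1490.3 CPM; it changed by -0.50 ± 0.11, edgeR adjusted p = 0.00961 and lost its call only without LINE1 control replicate 1. Eef1e1, a part of the multi-tRNA synthetase complex, stood at 106, 139 and 106 CPM and at 69.1, 74.9 and 96 CPM, a change of -0.55. The call of Eef1e1 was lost without LINE1 control replicate 1 or 2. Eif6, which keeps free large subunits from joining, stood at 238, 423 and 216 CPM and at 188, 197 and 189.9 CPM, a change of -0.61 ± 0.18, edgeR adjusted p = 0.0273. Its call was lost without LINE1 control replicate 1 or 2, and without RC control replicate 2, where the change was -0.24. Eef1a1 stood at 10198, 13569 and 10317 CPM and at 8989.5, 9196 and 10232 CPM, and Eef2 at 3202, 3069 and 3347 CPM and at 2934, 3178 and 3189 CPM. Neither passed in edgeR: Eef1a1 was at -0.26 ± 0.10, edgeR adjusted p = 0.0828, and Eef2 at -0.048 ± 0.078, edgeR adjusted p = 0.697. DESeq2 called Eef1a1 lower, with a DESeq2 adjusted p of 0.0491. Eef2k, the gene of the eEF2 kinase, stood at 22.4, 22.9 and 18.2 CPM in LINE1 control and did not pass, at -0.22 ± 0.17, edgeR adjusted p = 0.38.

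The LINE1 ASO was also compared with the RC ASO in siDux cells, in libraries that the comparison above did not use. Of 64 members 4 fell and 0 rose, where 0.749% of all genes fell and 2.31% rose; at an unadjusted p under 0.05 19 were lower and 3 higher, and DESeq2 called 10 lower and 1 higher. The 4 were Eif2s2, Eif4a3, Eif4e2 and Eif4ebp1. Eif2s2 stood at 830.0, 853 and 743 CPM in RC siDux and at 567, 598 and 618 CPM in LINE1 siDux, without overlap, and changed by -0.44 ± 0.11, edgeR adjusted p = 0.0406. Eif4a3 stood at 361, 354 and 376 CPM and at 247, 254 and 303 CPM, a change of -0.44 ± 0.094, edgeR adjusted p = 0.0193. Eif4e2, at 157, 144 and 153 CPM and at 109, 118 and 129 CPM, changed by -0.35 ± 0.087, edgeR adjusted p = 0.0373, and Eif4ebp1, at 204, 227 and 223 CPM and at 178, 169.9 and 187 CPM, by -0.29 ± 0.071, edgeR adjusted p = 0.0368. None of the 4 calls held in all 6 fits that left out a library; each held in 1 of them, and the count of lower members then ran from 0 to 3.

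None of the 12 eIF3 genes passed in edgeR in siDux cells (8 were lower at an unadjusted p under 0.05, and DESeq2 called 2). All 12 lay lower in each LINE1 siDux library than in each RC siDux library, where 15.9% of all genes did, with a median log2 fold change of -0.25. Eif3g stood at 203, 193 and 204 CPM in RC siDux and at 148, 163 and 189.7 CPM in LINE1 siDux, a change of -0.26 ± 0.10, edgeR adjusted p = 0.164. Eif3d stood at 395, 449 and 399 CPM and at 295, 338 and 354 CPM, a change of -0.33 ± 0.10, edgeR adjusted p = 0.0796. Fitted on these 2 groups alone, 13 members fell and 1 rose, 5 of the 13 being eIF3 genes. The difference of the LINE1 change between siDux and siControl cells was tested as an interaction: 0 of 64 members passed in either direction, as did 0% of all genes, with 1 member higher and 0 lower at an unadjusted p under 0.05, and DESeq2 called 0.

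The siNcl cells were compared with RC control to ask what loss of nucleolin does under the control ASO. Of 64 members 20 fell and 4 rose, where 15.6% of all genes fell and 16.7% rose. The members' median was -0.15. By group 5 of 12 eIF3 genes fell, 4 of 15 of the Eif4 group, 2 of the 15 Eif2 genes other than the Argonaute genes, 4 of 10 of the Eif1, Eif5 and Eif6 families and 5 of 8 elongation factor genes. Of the 20 members that fell, 9 passed in all 6 fits that left out a library: Eif4e2, Eif4a3, Eif3d, Eif6, Eif2b3, Eif3k, Eef2k, Eif4ebp1 and Eif1ax. Of the 4 that rose, Eif2ak1, Eif2ak3 and Eif2s3y did. Among the members that passed in all 6, Eif4e2, Eif4a3, Eif3d, Eif4ebp1 and Eif2s3y also passed against RC siDux in edgeR, and the others did not. The count of members that fell was 13 without RC control replicate 2, between 9 and 14 without a siNcl library, and 7 when these 2 groups were fitted alone; it was 0 with ERCC library sizes. ES cell markers summed to 3520 to 4236 CPM in RC siNcl, and 2 of 8 fell. Primitive endoderm markers summed to 21.2 to 26.3 CPM there and to 8.81 to 18.1 CPM in RC control, without overlap, and 2 of 6 rose, as did 1 trophoblast and 1 mesoderm marker. The part of these markers in the results was not tested.

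The 4 genes of the Eif4 group that fell under siNcl were Eif4e2, Eif4a3, Eif4ebp1 and Eif4ebp2. Eif4e2 encodes a cap-binding protein that represses translation and does not bind eIF4G. It stood at 151, 152 and 142 CPM in RC control and at 108, 105 and 101 CPM in RC siNcl, well apart, and changed by -0.51 ± 0.088, edgeR adjusted p = 0.000419. Eif4e itself stood at 248, 242 and 257 CPM in RC siNcl and did not pass, at -0.11 ± 0.081, edgeR adjusted p = 0.319. The ratio of Eif4e to Eif4e2 counts was 1.81 ± 0.132 in RC control and 2.38 ± 0.129 in RC siNcl, against 1.92 ± 0.0607 in LINE1 control (SD, n = 3). Eif4ebp1, which encodes the main mTOR-controlled inhibitor of eIF4E, stood at 232, 241 and 235 CPM in RC control and at 167, 177 and 167 CPM in RC siNcl. Eif4ebp1 changed by -0.47 ± 0.072, edgeR adjusted p = 0.00013. Its relative Eif4ebp2 stood at 158, 107 and 154 CPM in RC control and at 106, 112 and 94.1 CPM in RC siNcl, with overlap. Eif4ebp2 changed by -0.43 ± 0.12, edgeR adjusted p = 0.0112, a call that did not hold in all 6 fits that left out a library. Eif4a3 stood at 260.1, 262 and 255 CPM in RC siNcl and changed by -0.43 ± 0.094, edgeR adjusted p = 0.00241. Eif4a1 did not pass, at 2615, 2683 and 2608 CPM and -0.14 ± 0.095, edgeR adjusted p = 0.257, and Eif4g2, a scaffold that lacks the eIF4E site, stood at 2326, 2222 and 2479 CPM against 2066, 1947 and 2147 CPM in RC control, a change of 0.19 ± 0.086, edgeR adjusted p = 0.101.

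Of the eIF3 genes, Eif3d had the lowest adjusted p under siNcl. It stood at 296, 305 and 288 CPM, below each RC control library, and changed by -0.64 ± 0.10, edgeR adjusted p = 0.000202. With a library left out, its change stayed between -0.66 and -0.61. Eif3k, a small subunit at the edge of the complex, stood at 201, 276 and 189 CPM in RC control and at 172, 169 and 158 CPM in RC siNcl and changed by -0.42 ± 0.11, edgeR adjusted p = 0.00906, while Eif3c, Eif3i and Eif3m fell by between -0.22 and -0.52. Eif3m changed by -0.19 without RC control replicate 2, which ended its call, and Eif3i by -0.16, which ended its call too. The calls of Eif3c and Eif3i were lost without any 1 of the 3 siNcl libraries, that of Eif3m without siNcl replicate 2 or 3, and that of Eif3c also without RC control replicate 3. Eif3a, at 1129.8, 1051 and 1043 CPM, and Eif3l, at 411, 419.7 and 428 CPM, did not pass, with changes of -0.18 and 0.032.

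In the Eif2 group 2 of the 4 kinase genes and the Y-linked subunit gene rose. Eif2ak1 encodes HRI, the kinase that responds to heme shortage. It stood at 71.5, 63.8 and 74.3 CPM in RC control and at 104, 92.2 and 97.8 CPM in RC siNcl and rose by 0.49 ± 0.097, edgeR adjusted p = 0.00125. Eif2ak3 stood at 41.4, 47.2 and 44.7 CPM in RC siNcl, above each RC control library, and rose by 0.44 ± 0.098, edgeR adjusted p = 0.00276. Eif2ak4 and Eif2ak2, the gene of the kinase PKR that binds double-stranded RNA, did not pass, at -0.099 ± 0.10, edgeR adjusted p = 0.499 and -0.016 ± 0.12, edgeR adjusted p = 0.936. Neither Eif2ak1 nor Eif2ak3 passed against RC siDux. Phosphorylation of eIF2 was not measured. Of 10 genes that act on phosphorylated eIF2 or that ATF4 drives, 7 fell under siNcl and 0 rose, with a median of -0.88, where 15.6% of all genes fell. Against RC siDux 3 of the 10 fell, where 7.1% of all genes did. Their median was -0.53, and 6 were lower at an unadjusted p under 0.05. Nupr1, a stress-induced chromatin protein gene, changed by -2.26 ± 0.35, edgeR adjusted p = 0.000156, Asns, the asparagine synthetase gene, by -0.91 ± 0.12, edgeR adjusted p = 3.09e-05, and Atf5, a related transcription factor gene, by -0.85 ± 0.17, edgeR adjusted p = 0.0011. Under the LINE1 ASO 1 of the 10 fell, Asns, at -0.54 ± 0.12, edgeR adjusted p = 0.00847, a count near the 9.69% of all genes that fell.

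Eif2s3y stood at 95.4, 113 and 89.4 CPM in RC control and at 136, 129 and 137 CPM in RC siNcl, and rose by 0.44 ± 0.087, edgeR adjusted p = 0.00113. Its X-linked copy Eif2s3x stood at 549, 558 and 561 CPM and at 554, 531 and 542 CPM and did not pass, at -0.035 ± 0.08, edgeR adjusted p = 0.776. The ratio of X-linked to Y-linked counts was 5.66 ± 0.667 in RC control, 4.04 ± 0.0868 in RC siNcl, 7.37 ± 0.264 in RC siDux, 5.42 ± 0.668 in LINE1 control and 6.33 ± 0.77 in LINE1 siDux (SD, n = 3). Eif2s2 stood at 774, 692 and 717 CPM under siNcl and changed by -0.36 ± 0.11, edgeR adjusted p = 0.0197, a call that RC siNcl replicate 2 or 3 or RC control replicate 2 decided: it was lost when any 1 of these was left out. Of the eIF2B genes, Eif2b3 stood at 73.2, 72.2 and 68.9 CPM and changed by -0.41 ± 0.085, edgeR adjusted p = 0.00179, and Eif2b4, at 69.7, 63.7 and 57.5 CPM, did not pass, at -0.35 ± 0.15, edgeR adjusted p = 0.083. Eif2a, at 201, 200.0 and 198 CPM, and Eif2d, at 144, 145 and 145 CPM, lay near their RC control levels, with changes of -0.036 and 0.012. None of the 4 Argonaute genes passed in edgeR or DESeq2, with 2 higher and 0 lower at an unadjusted p under 0.05; Eif2c3, at 11.6, 11.6 and 10.6 CPM, was at 0.48 ± 0.19, edgeR adjusted p = 0.069, and Eif2c1, with 107, 117 and 131 CPM against 101, 70.6 and 118 CPM in RC control, at 0.29 ± 0.13, edgeR adjusted p = 0.101.

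Eef2k encodes the kinase that phosphorylates eEF2 and slows elongation. It stood at 24.2, 29.3 and 21 CPM in RC control and at 13.5, 15.9 and 13.8 CPM in RC siNcl and changed by -0.78 ± 0.18, edgeR adjusted p = 0.00352. Its target Eef2 stood at 3337, 3606 and 3647 CPM and did not pass, at 0.14 ± 0.078, edgeR adjusted p = 0.187. The ratio of Eef2 to Eef2k counts was 246 ± 18.3 in RC siNcl and 132 ± 27.4 in RC control. It was 214 ± 63.8 in RC siDux, 148 ± 23.9 in LINE1 control and 180 ± 33.3 in LINE1 siDux (SD, n = 3). Eif1ax stood at 176, 249 and 190.3 CPM and at 127, 128 and 121 CPM and changed by -0.71 ± 0.12, edgeR adjusted p = 0.000208; Eif1a did not pass, at -0.13 ± 0.12, edgeR adjusted p = 0.428. Eif6 stood at 197, 171 and 150.3 CPM and changed by -0.76 ± 0.18, edgeR adjusted p = 0.00398; this change was -0.40 without RC control replicate 2. Eef1a1 stood at 11387, 11478 and 11793 CPM, near its level in RC control, with a change of 0.024 ± 0.10, edgeR adjusted p = 0.884. Of the exchange factor genes, Eef1d stood at 313, 282 and 280.2 CPM and changed by -0.70 ± 0.20, edgeR adjusted p = 0.0147, and Eef1g stood at 1461, 1452 and 1476 CPM and changed by -0.34 ± 0.11, edgeR adjusted p = 0.0281. Both lay below all 3 RC control libraries, and the calls were lost without RC siNcl replicate 3 for Eef1d and without RC siNcl replicate 1 or 2 or 3 or RC control replicate 2 for Eef1g. Without RC control replicate 2 the changes of Eef1d, Eef1g and Eef1b2 were -0.25, -0.20 and -0.16, and that of Eif3k was -0.23. Eif1ad, a less studied relative of Eif1a, stood at 90.9, 80.1 and 82.5 CPM and at 71.3, 70.2 and 65.3 CPM, a change of -0.29 ± 0.078, edgeR adjusted p = 0.00879. Eif5a stood at 1541, 1528 and 1510.2 CPM and changed by -0.26 ± 0.093, edgeR adjusted p = 0.0379, and Eif5a2 stood at 34.2, 31.8 and 33.3 CPM and rose by 0.33 ± 0.10, edgeR adjusted p = 0.0246. Eif4b and Eif4h did not pass: Eif4h, at 493, 439 and 438 CPM, was at 0.20 ± 0.093, edgeR adjusted p = 0.113.

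**Figure D3:**
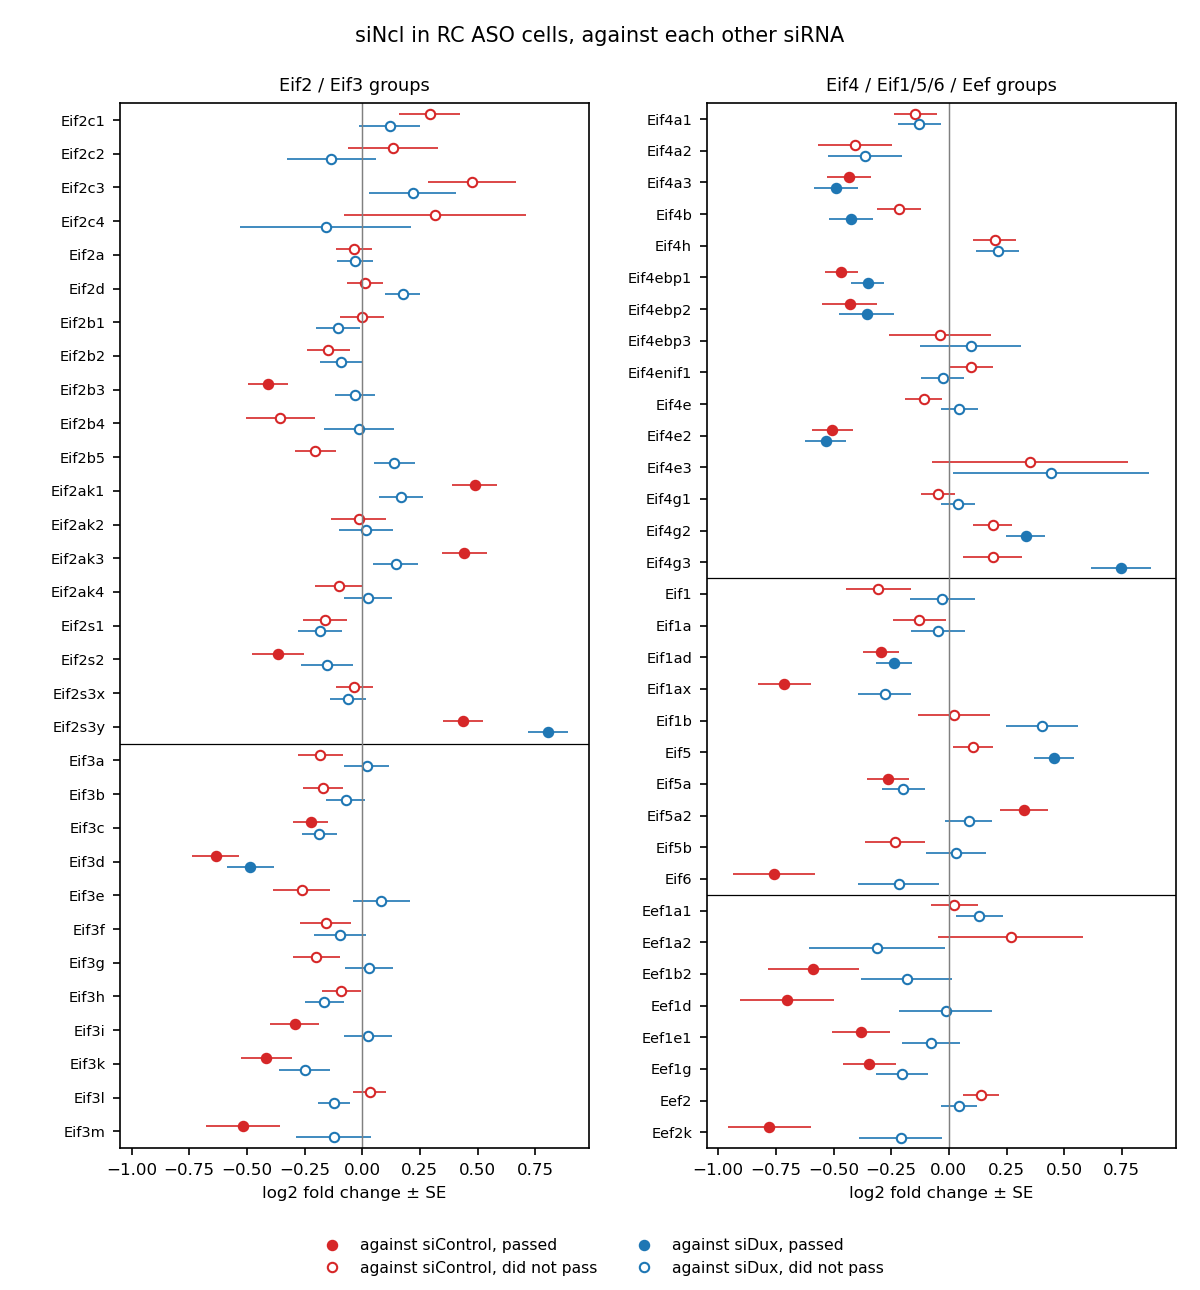
Log2 fold change ± SE of each member for RC siNcl against RC control (red) and against RC siDux (blue), with filled points for an edgeR adjusted p under 0.05. Eif3d, Eif4a3, Eif4e2, Eif4ebp1, Eif4ebp2 and Eif1ad are filled left of 0, and Eif2s3y right of 0, in both.

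Since RC control replicate 2 stood apart, siNcl was also set against RC siDux, which shares the ASO and does not use RC control. Of 64 members 7 fell and 4 rose, where 7.1% of all genes fell and 9.53% rose. Eif4e2 changed by -0.53 ± 0.088, edgeR adjusted p = 0.000579, Eif4a3 by -0.49 ± 0.094, edgeR adjusted p = 0.00194 and Eif3d by -0.49 ± 0.10, edgeR adjusted p = 0.00379. Eif4b stood at 995, 944 and 1059.6 CPM in RC siDux and at 748, 769 and 719 CPM in RC siNcl and changed by -0.42 ± 0.096, edgeR adjusted p = 0.00594. These 4 and Eif4ebp1 passed in all 6 fits that left out a library, and Eif4ebp2 and Eif1ad in none. The members that rose were Eif2s3y, Eif4g3, Eif5 and Eif4g2, and the first 3 passed in all 6. These 3 were also lower in RC siDux than in RC control, and against RC control Eif4g3 and Eif5 did not pass under siNcl, at 0.19 ± 0.13, edgeR adjusted p = 0.277 and 0.10 ± 0.087, edgeR adjusted p = 0.387. Eif5, the GTPase-activating factor of eIF2, stood at 503, 476 and 448 CPM in RC siDux and at 682, 615 and 660.1 CPM in RC siNcl, a change of 0.46 ± 0.087, edgeR adjusted p = 0.00183. Eef2k and Eif6, called against RC control, were at -0.21 ± 0.18, edgeR adjusted p = 0.476 and -0.22 ± 0.18, edgeR adjusted p = 0.442 here and did not pass. Nor did Eif2b3, Eif3k and Eif1ax, also called against RC control, in edgeR or DESeq2, with DESeq2 changes of -0.030, -0.25 and -0.28. Eef2k, Eif2b3 and Eif1ax were themselves called lower in RC siDux than in RC control. The kinase genes Eif2ak1 and Eif2ak3 did not pass here either, at 0.17 ± 0.097, edgeR adjusted p = 0.26 and 0.14 ± 0.097, edgeR adjusted p = 0.342. The siNcl libraries are the same in both comparisons.

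The siDux cells were compared with siControl cells under each ASO, to ask what changes with that siRNA. Dux had few counts in both RC groups, and its fall under the LINE1 ASO did not pass. Loss of Dux and other effects of the siRNA therefore cannot be told apart here. Under the RC ASO 8 of 64 members fell and 1 rose, where 4.5% of all genes fell and 6.09% rose; with the replicate number as a block, 10 fell and 2 rose. Among genes with at least 5 CPM in at least 3 libraries 2 members rose, where 7.66% of genes did. The members that fell were Eif4g3, Eif5, Eef1d, Eef2k, Eif1ax, Eif2b3, Eif2b5 and Eif2s3y, and Eif2ak1 rose. None of the 9 calls held in all 6 fits that left out a library. Under the LINE1 ASO 1 member fell and 0 rose, where 0.306% of all genes fell and 0.544% rose; with the block 1 fell and 1 rose. At an unadjusted p under 0.05 3 were lower and 1 higher, and DESeq2 called 1 lower and 0 higher. The gene that fell under both ASOs was Eif4g3, which encodes a paralogue of the eIF4G scaffold.

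In cells without siDux, Eif4g3 stood at 58.1, 55 and 70.2 CPM for RC control, at 66.7, 65.1 and 77.5 CPM for RC siNcl and at 61.1, 58.2 and 79.4 CPM for LINE1 control. In siDux cells it stood at 37.1, 43.2 and 44.7 CPM under the RC ASO and 44, 40.7 and 46.1 CPM under the LINE1 ASO. Thus all 6 siDux libraries, at most 46.1 CPM, lay below the 9 others, at least 55.0 CPM, as they did at Eif2s3y and for 0.544% of all genes tested; no member lay above the 9 others in all 6, where 0.497% of genes did. Both genes were picked out after their values were seen. Eif4g3 changed by -0.56 ± 0.13, edgeR adjusted p = 0.0132 under the RC ASO and by -0.60 ± 0.13, edgeR adjusted p = 0.0396 under the LINE1 ASO, comparisons that share no library. The call under the LINE1 ASO was lost in each of the 6 fits that left out a library, with changes between -0.69 and -0.45, and that under the RC ASO without RC siDux replicate 1. The ratio of Eif4g1 to Eif4g3 counts was 18.4 ± 2.17 in RC control and 15.8 ± 1.82 in LINE1 control, against 25.3 ± 2.9 in RC siDux and 23 ± 1.53 in LINE1 siDux (SD, n = 3). Without RC control replicate 2 the changes of Eef1d and Eif1ax under siDux were -0.24 and -0.27, and neither passed. Eif5 fell under the RC ASO, from 567, 682 and 572 CPM in RC control, by -0.35 ± 0.087, edgeR adjusted p = 0.0176; with ERCC library sizes its change was 0.0045. Under the LINE1 ASO it did not pass, at -0.075 ± 0.087, edgeR adjusted p = 0.812. The eIF3 genes under siDux gave 0 calls in edgeR under either ASO, with 4 lower and 1 higher at an unadjusted p under 0.05 under the RC ASO and 0 under the LINE1 ASO; DESeq2 called 1 lower under the RC ASO and 0 under the LINE1 ASO. Their medians were -0.16 and -0.013, and with ERCC library sizes the first became 0.17 as the median of all genes moved to 0.31.

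**Figure D4:**
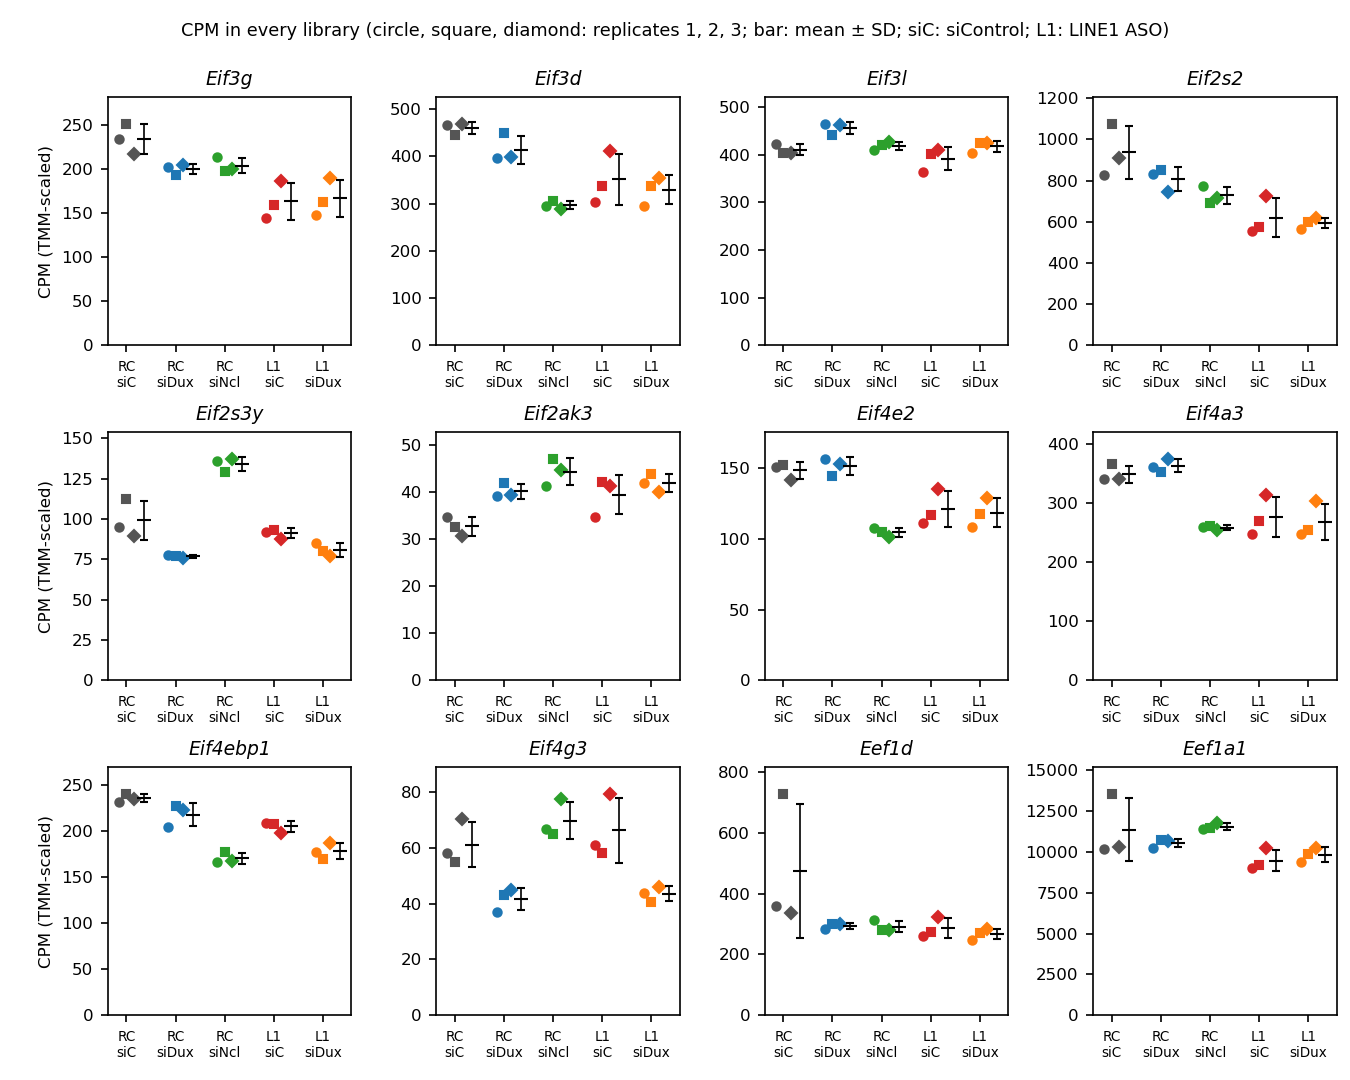
CPM of 12 members in every library, with replicates 1, 2 and 3 as circles, squares and diamonds and mean ± SD beside them (n = 3). Eif4g3 is at or below 46.1 CPM in all 6 siDux libraries, Eif4e2 at or below 108 CPM in RC siNcl, and Eef1d at 729 CPM in RC control replicate 2.

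The remaining values of the members fixed for display were these, in CPM. Eif2s1 stood at 319, 316 and 332 CPM in RC siNcl, 366, 374 and 359.5 in RC siDux and 292, 323 and 354 in LINE1 siDux, and did not pass under siNcl, at -0.16 ± 0.094, edgeR adjusted p = 0.204. Eif3c stood at 654, 659 and 637 CPM in RC siNcl, 721, 776 and 721 in RC siDux and 621, 645 and 654 in LINE1 siDux. The LINE1 siDux libraries of Eif3c lay below all 3 of RC siDux, but the change did not pass, at -0.21 ± 0.075, edgeR adjusted p = 0.131. Eif4g1 stood at 1087, 1039 and 1100.3 CPM in RC siNcl, 1062, 1015 and 1063 in RC siDux and 956, 1003 and 1037 in LINE1 siDux. Eif4g2 stood at 1923, 1888 and 2242 CPM in LINE1 control, 1981, 1772 and 1828 in RC siDux and 1936, 2016 and 2079.7 in LINE1 siDux. Neither scaffold gene passed in LINE1 siDux against RC siDux, with changes of -0.068 and 0.11. Eif4a2, a second helicase gene of the cap-binding complex, stood at 537, 929.9 and 519.9 CPM in RC control, 546, 571 and 530.3 in LINE1 control, 513, 514 and 472 in RC siNcl, 635, 697 and 596 in RC siDux and 566, 637 and 544 in LINE1 siDux. RC control replicate 2 was far above the others there, and under siNcl Eif4a2 did not pass in edgeR, at -0.41 ± 0.16, edgeR adjusted p = 0.0629, but did in DESeq2, with an adjusted p of 0.0495. Eif2ak4 stood at 33.6, 28.9 and 34.5 CPM in RC control, 28.8, 30.7 and 28.2 in LINE1 control, 27, 32 and 31.5 in RC siNcl, 31.6, 30.8 and 26.7 in RC siDux and 27.7, 27.4 and 27.8 in LINE1 siDux, and passed in no comparison in edgeR.

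In siDux cells, Eif3a stood at 1073, 1013 and 1096 CPM with the RC ASO and at 926, 992 and 1011 with the LINE1 ASO. Eif4a1 stood at 2915, 3010.4 and 2713 CPM and at 2086, 2352 and 2503, and Eif5a at 1690.0, 1735 and 1828 CPM and at 1300.3, 1396 and 1573, in the same order. In all 3 genes the LINE1 libraries lay below the RC libraries without overlap, as 15.9% of all genes did, and none passed in edgeR, with changes of -0.12, -0.32 and -0.30. DESeq2 called Eif4a1 and Eif5a lower, with DESeq2 adjusted p-values of 0.030 and 0.0381. Eif4e stood at 246, 245 and 233 CPM and at 209, 215 and 222, Eif6 at 200.5, 209 and 193 CPM and at 169, 174 and 174, and Eif2ak3 at 39.2, 42 and 39.5 CPM and at 42, 43.9 and 40. Eef1a1 stood at 10236, 10726 and 10662 CPM and at 9369, 9902 and 10248, and Eef2 at 3213, 3450.2 and 3619 CPM and at 3036, 3141 and 3207. The libraries overlapped for Eif2ak3 and Eef1a1, and the LINE1 libraries were the lower ones without overlap for Eif4e, Eif6 and Eef2. None of these 5 passed, with changes of -0.17, -0.22, 0.062, -0.099 and -0.13.

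LINE1 control and RC siNcl were also compared directly. Of 64 members 3 were higher in LINE1 control and 5 lower, where 9.45% of all genes were higher and 10.4% lower. Eif4ebp2 stood at 144, 161 and 149 CPM in LINE1 control and at 106, 112 and 94.1 CPM in RC siNcl, a difference of 0.54 ± 0.12, edgeR adjusted p = 0.00401. Eif4ebp1 differed by 0.27 ± 0.071, edgeR adjusted p = 0.0155 and Eef2k by 0.56 ± 0.18, edgeR adjusted p = 0.035. The 5 lower in LINE1 control were Eif2s3y, at -0.56 ± 0.086, edgeR adjusted p = 0.000289, Eif2ak1, at -0.40 ± 0.096, edgeR adjusted p = 0.00801, Eif5, Eif2d and Eif3g. The calls of Eif4ebp2 and Eif2s3y held in all 6 fits that left out a library. The comparisons of each with RC control share its 3 libraries.

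Other genes of translation were taken from lists by function. Over all genes tested 9.69% fell and 9.35% rose under the LINE1 ASO, and 15.6% fell and 16.7% rose under siNcl. The counts of lower helpers under siNcl, of poly(A)-binding genes and of modification genes under the LINE1 ASO lie near these shares. So do both counts of the mTOR list under siNcl. Of 9 termination and recycling genes 4 fell under the LINE1 ASO and 3 under siNcl, among them Etf1, the release factor that reads stop codons, at -0.36 ± 0.081, edgeR adjusted p = 0.00898 under the LINE1 ASO and -0.44 ± 0.081, edgeR adjusted p = 0.000639 under siNcl. Pelo, which rescues stalled ribosomes, changed by -0.68 ± 0.15, edgeR adjusted p = 0.00943 and -0.54 ± 0.15, edgeR adjusted p = 0.0139 in the same order. Of 12 mitochondrial translation factor genes 4 and 5 fell; Tsfm, the mitochondrial elongation factor Ts, changed by -0.89 ± 0.15, edgeR adjusted p = 0.000287 under siNcl, and Tufm, the mitochondrial elongation factor Tu, by -0.42 ± 0.11, edgeR adjusted p = 0.0176 under the LINE1 ASO. Of 16 other initiation helpers 3 fell and 1 rose under the LINE1 ASO and 2 fell and 1 rose under siNcl. Larp1, which binds TOP tracts, changed by -0.30 ± 0.071, edgeR adjusted p = 0.0125 and -0.33 ± 0.071, edgeR adjusted p = 0.00214. Of 14 genes of the mTOR pathway and its kinases 0 passed under the LINE1 ASO in edgeR or DESeq2, with 3 higher and 1 lower at an unadjusted p under 0.05, and under siNcl 3 rose and 2 fell; Ddit4, an inhibitor of mTOR, rose by 1.03 ± 0.24, edgeR adjusted p = 0.00367. Of 7 poly(A)-binding genes 1 fell in each comparison, and of 12 genes of selenocysteine insertion and of eIF5A and eEF2 modification 1 fell under the LINE1 ASO and 3 under siNcl. Dhps, which starts hypusine formation on eIF5A, changed by -0.30 ± 0.081, edgeR adjusted p = 0.02 and -0.32 ± 0.082, edgeR adjusted p = 0.0066.

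All 64 members matched a RefSeq gene, and 51 had a promoter sequence, 67 in all. A tract within 5 bases of the start was found in 25.4% of member promoters and in 18.3% of the 32851 promoters in the table. Of the 15 members with a tract, such as Eif3f, Eif3l and both Eif2s3 genes shown above, 3 fell under the LINE1 ASO (median -0.12) and 1 under siNcl (median -0.035). Of the 36 without a tract, such as Eif3g, Eif3d, Eif2s2, Eif4e2 and Eif4a3, 17 fell under the LINE1 ASO (median -0.26) and 13 under siNcl (median -0.21). These counts carry no test, and annotated starts need not be the starts used in ES cells. The E-box CACGTG, searched on both strands over 300 bases from 250 before the start, was in 20.9% of member promoters and 7.15% of all. The letters TGACG, the core of CREB and ATF sites, were in 46.3% and 20.8%, and TGATGNAA, the composite site of C/EBP and ATF4, in 2.99% and 3.97%. A CACGTG and a TGACG site may share bases. The promoters of all genes were not matched to those of the members in expression or base composition, and the shares were not tested. Among members with CACGTG 5 of 12 fell under the LINE1 ASO, and among those without 15 of 39. By merged exon length, 17 of the 32 members of at most the median length fell under the LINE1 ASO and 10 of the 32 longer, with a Spearman correlation of 0.32 between length and log2 fold change across the 64 members, which share libraries and are not independent.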

How the data were processed

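The deposited tables, matched by column name to 15 libraries, hold raw counts per gene and per repeat subfamily; the authors' sheet names credit featureCounts, and the libraries are directional (NEBNext Ultra Directional), per the labels. The submitters' processing notes name Trim Galore 0.4.0, TopHat2 2.0.9, DESeq2 1.12.3, R 3.3.0 and mm9; the strand setting and the treatment of reads with several matches are not given in the sources used here. ERCC spike-ins (92 rows) entered neither library sizes nor tests.

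The test was that of edgeR 4.0.16 (R 4.3.3) on these counts: filterByExpr by group (14696 genes kept), TMM scaling, and a quasi-likelihood fit with 1 term per group over all 15 libraries (10 residual degrees of freedom). The Benjamini-Hochberg adjustment ran over all genes tested, separately for 8 comparisons, the interaction included. The script was checked on simulated counts. CPM values are counts scaled to the gene total times its TMM factor, and SDs are over 3 libraries. Precision is set by 3 libraries per group and totals of 9.55 M to 27.6 M.

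The members, the gene lists and the markers were chosen with earlier results of these data known. Any member could be named. Values in every library are given for fixed members (Eif2s1, Eif2s2, Eif2ak3, Eif2ak4, Eif3a, Eif3c, Eif4a1, Eif4a2, Eif4e, Eif4ebp1, Eif4g1, Eif4g2, Eif5a, Eif6, Eef1a1 and Eef2). For those with the lowest p by subgroup, values of some of the groups are given. In other lists the genes with the lowest p were named.

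Libraries of 1 number deviated together, with correlations of 0.22 to 0.30 between RC siDux and RC control, 0.33 to 0.62 between LINE1 siDux and LINE1 control and 0.20 to 0.41 between RC siNcl and RC siDux, above 0.1 in all 3 pairs; in the other comparisons 1 or more pairs fell short; the pairing comes from the data, since the labels mention no shared culture or day. Chi-square values per degree of freedom between replicates were 2.96 to 47.8, so none was counted as a duplicate. Alternatives were RLE scaling, ERCC library sizes, no filter, a filter of 5 CPM in 3 libraries, the replicate block, the compared groups alone, DESeq2 1.42.0, and each library left out. Sequences are RefSeq's (GRCm38.p6), exon lengths GENCODE M21's; the files' build differs, so neither was joined to the files by coordinates.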

Additional observations from a re-analysis of the deposited data

How the results depend on the processing

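RLE scaling changed no count of members called. With ERCC library sizes 0 members passed in any comparison; that scaling moved the median of all genes to 0.22 for LINE1 against RC control, 0.31 for RC siDux against RC control, -0.22 for LINE1 against RC in siDux cells, -0.27 for siNcl against RC siDux, 0.16 for LINE1 control against RC siNcl and -0.12 for siDux under the LINE1 ASO, and the cause of the lost calls was not tested. Under it several medians changed sign. For LINE1 against RC control those of all 19 Eif2 genes and of the Eif4 group became 0.096 and 0.054. For RC siDux against RC control those of all members and of the Eif2, Eif3 and Eif4 groups became 0.21, 0.32, 0.17 and 0.28, and the change of Eif5 became 0.0045. For LINE1 control against RC siNcl those of all members and of the Eif2 and Eif4 groups became 0.060, 0.053 and 0.080. The Eif2 median became 0.0052 for siNcl against RC control. For the interaction the medians of all members and of the Eif2 and Eif3 groups became -0.36, -0.41 and -0.34. Fits on the compared groups alone called 0 higher and 0 lower members for LINE1 against RC control and for RC siDux against RC control, 7 lower for siNcl against RC control, 0 lower for siDux under the LINE1 ASO, 1 higher and 13 lower for LINE1 against RC in siDux cells, 16 lower for siNcl against RC siDux, and 6 higher for LINE1 control against RC siNcl. DESeq2, the replicate block and the 5 CPM filter each called 4 members higher for LINE1 against RC control, and 2 higher for RC siDux against RC control, where 0 were higher without a filter. For LINE1 against RC in siDux cells DESeq2 and the replicate block each called 1 higher and 10 lower. The replicate block called 1 higher for siDux under the LINE1 ASO and changed no other count by over 1.5 times.

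With single libraries left out, counts of members higher and lower ran from 0 to 3 and 3 to 32 for LINE1 against RC control, 3 to 5 and 9 to 23 for siNcl against RC control, 0 to 2 and 1 to 11 for RC siDux against RC control, 0 and 0 for siDux under the LINE1 ASO, 0 to 1 and 0 to 3 for LINE1 against RC in siDux cells, 3 to 4 and 5 to 5 for siNcl against RC siDux, and 1 to 5 and 1 to 10 for LINE1 control against RC siNcl. Low counts limit Eif2c4, Eef1a2, Eif4e3 and Eif4ebp3, whose SEs were among the widest.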
